A study of Mus musculus with 16 samples.

Results

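This account covers 1 comparison: polysome RNA of prelimbic neurons that project to the basolateral amygdala, set against the total RNA of the tissue around them. The members were all genes with a mean normalized count of at least 50 over the 6 PL-BLA libraries, a rule that uses abundance and not the change. They numbered 12228 of 39017 gene rows, of 23343 genes with any read and of 17668 genes with an adjusted p. The minimum fell between Gm5815 at a mean of 49.968 and Klf8 at 50.005, per the authors' deposited table.

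The series used C57BL/6J mice, an inbred strain, and 16 libraries in 6 groups. The virus AAV-IV-GFPL10, which carries a ribosomal protein fused to green fluorescent protein, went into the prelimbic cortex (PL), and CAV-Cre, a canine adenovirus with Cre recombinase that enters through axon terminals, went into 1 target region. The PL-BLA IP group (3 libraries) is RNA pulled down with anti-GFP beads from mice with CAV-Cre in the basolateral amygdala (BLA), and the PL-BLA Input group (3 libraries) is total RNA of the PL from the same kind of mouse. PL-NAc (nucleus accumbens; 3 IP and 3 Input) and PL-VTA (ventral tegmental area; 2 IP and 2 Input) serve only for comparison. All groups, Input included, carried both viruses. The labels give no age, sex or pooling of animals, and no promoter for the tag. Each value is a log2 ratio of IP to Input beside the standard error (SE) that the authors gave, and a gene is called where the authors' adjusted p from DESeq2 is under 0.05. The table holds no value for a single library, so no spread of single samples can be shown, and the p-values measure the spread between these libraries, which may be technical.

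Translating ribosome affinity purification captures mRNA through a tagged ribosome, so it reads the transcripts that sit on ribosomes in the tagged cells. The prelimbic cortex is a part of the medial prefrontal cortex whose glutamatergic pyramidal neurons send axons to the basolateral amygdala, a pathway studied in fear and other learned emotional behaviour. Cortical neurons that project to the amygdala lie in several layers, and many of them also send branches to other targets. In a comparison of this kind, fewer cells of a type and less RNA per cell cannot be told apart, and neither can be told from a lower share of a transcript on polysomes.

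The IP gained 3565 genes and lost 2787. That is 29.2% of members called higher and 22.8% called lower, and 5876 were not called. Large changes were mostly losses: 976 genes (7.98%) were called and at least 2-fold lower, against 219 (1.79%) called and at least 2-fold higher. The median member stood at 0.055, the 10th percentile at -0.85 and the 90th at 0.57 on the log2 scale. The mean normalized counts summed to 16347808, which stands for the average library, and 99.5% of them fell in members. The median SE was 0.129.

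**Figure D1:**
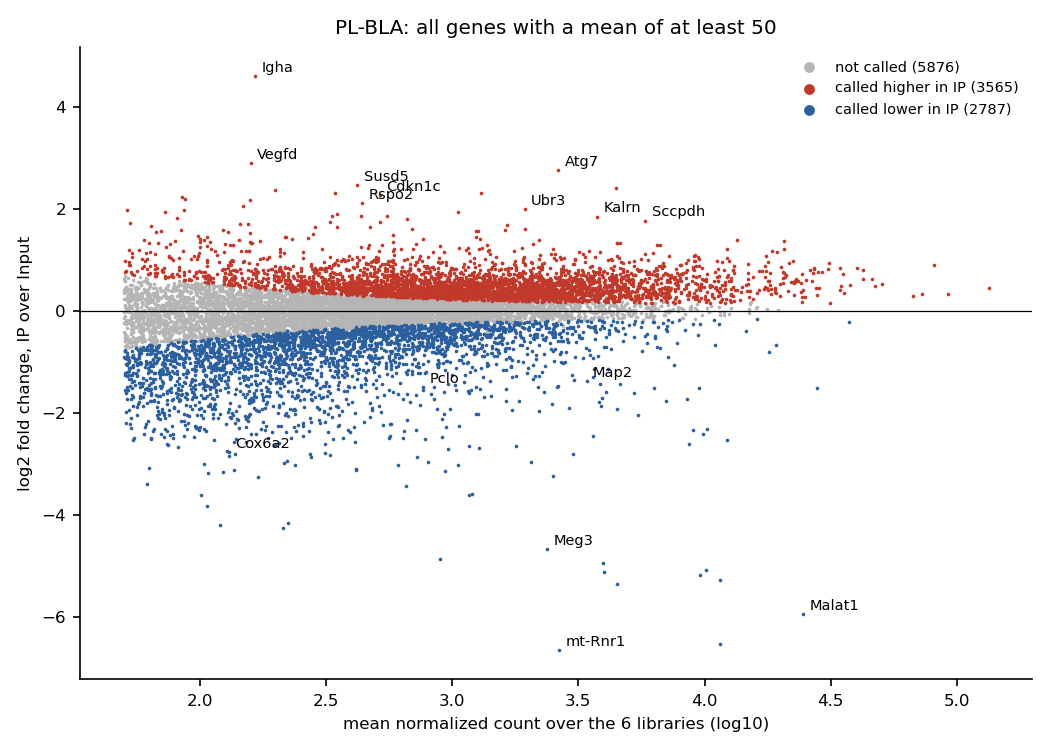
Each point is 1 of the 12228 genes with a mean normalized count of at least 50, plotted by that mean (log10, horizontal) and by the log2 fold change of IP over Input (vertical). The 3565 genes called higher are red, the 2787 called lower blue and the others grey; the largest losses reach -6.65 and the largest gain 4.61.

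The labelled cell type was checked on short marker lists. Of 7 excitatory neuron markers 6 were called higher and none lower, and all 7 inhibitory markers were lower, with the GABA-synthesizing enzyme gene Gad1 at -0.70 (SE 0.16) and the parvalbumin gene Pvalb at -3.02 (SE 0.14), per the authors' deposited table. All 6 oligodendrocyte, all 6 microglia and 5 of 6 astrocyte markers were lower, at medians of -2.31, -2.05 and -1.39, as were the 3 endothelial and mural markers above the minimum. The headers do not name the direction of the fold change, which was read from such glial transcripts and from mitochondrial ones, so their fall is no finding. None of these markers was at 0: Gfap, the astrocyte filament gene, had a mean of 1270 over the 6 libraries, per the authors' deposited table. Many genes described here as lower are used by glia or interneurons as well, and the part of those cells in each loss was not tested.

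The genes gained most were few and varied in kind. The 12 highest changes among called members belonged to Igha, Vegfd, Atg7, Susd5, Rpl10a-ps1, Wfdc18, Pik3r6, Sh2d3c, Cdkn1c, Nnmt, F2rl2 and Dancr, from 24.4-fold for Igha down to 4.51-fold for Dancr, per the authors' deposited table. Those with the largest test statistics are also abundant. Atg7 (chromosome 6, 114643097 to 114860614, GRCm38), the activating enzyme of autophagy conjugation, was at 2.77 (SE 0.10) with an adjusted p of 5.58e-156, per the authors' deposited table. Sh2d3c (chromosome 2, 32721055 to 32755512), a signalling adaptor with an SH2 domain, was at 2.31 (SE 0.10) with an adjusted p of 4.04e-118, per the authors' deposited table. Kalrn (chromosome 16, 33969073 to 34573532), kalirin, a guanine nucleotide exchange factor of dendritic spines, stood at 1.85 (SE 0.08), or 3.61-fold, on a mean of 3746, per the authors' deposited table. The ubiquitin ligase gene Ubr3 (chromosome 2, 69897246 to 70024013) stood at 1.996 (SE 0.09) and Sccpdh at 1.77 (SE 0.08), per the authors' deposited table. Nnmt, which methylates nicotinamide, was at 2.23 (SE 0.28) and F2rl2, a protease-activated receptor, at 2.20 (SE 0.27), per the authors' deposited table.

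The transcripts with the highest means were gained too. These means cover the IP and the Input libraries, so a gain in the IP also raises a gene's mean. In the top quintile by mean of protein-coding members outside the mitochondrial genome, 61.4% were called higher. The 6 genes with the highest means were all called higher, led by the vesicle fusion protein gene Snap25 with a mean of 133604 and a change of 0.45 (SE 0.06), per the authors' deposited table. Aldoa, an aldolase of glycolysis, changed by 0.89 (SE 0.06), and the calmodulin gene Calm2 by 0.30 (SE 0.07), per the authors' deposited table. These gains are under 2-fold, with standard errors of at most 0.07.

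The losses were led by RNA that is not translated on cytosolic ribosomes. All 9 mitochondrial genome transcripts were lower at a median of -5.17, and 10 of 11 long noncoding RNAs on a list of such genes at a median of -2.93. Among the latter, Meg3 was at -4.66 (SE 0.10), Neat1, a scaffold of nuclear paraspeckles, at -3.83 (SE 0.29) and Miat at -3.24 (SE 0.23), per the authors' deposited table. Some snoRNA host transcripts went the other way: Dancr was at 2.17 (SE 0.23) and Snhg4 at 1.90 (SE 0.15), whereas Gas5 was at -1.04 (SE 0.13) and Snhg11 at -3.24 (SE 0.11), per the authors' deposited table. Of 220 long noncoding members in all, 30 were higher and 66 lower. Of 408 processed pseudogenes, 130 were higher and 16 lower, a set whose reads can be shared with near-identical parent genes. Rpl10a-ps1 is such a copy, at 2.41 (SE 0.25), beside its parent Rpl10a, looked up after the copy's value was seen, at -0.18 (SE 0.27) and not called, per the authors' deposited table. The tag itself is labelled L10, and how its reads were assigned was not tested.

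The counts that follow are read against the background of 29.2% higher and 22.8% lower. That background itself ran with the mean count. Among protein-coding members outside the mitochondrial genome, 7.97% were higher and 35.1% lower in the bottom quintile by mean. In the top quintile 61.4% were higher and 12.3% lower. The lists were not matched for abundance, and its part in their counts was not tested. The lists overlap in genes and describe these libraries only. The plot of lists by direction shows the lists with at least 12 members apart from the marker lists, 8 lists added later and 1 list not reported here.

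**Figure D2:**
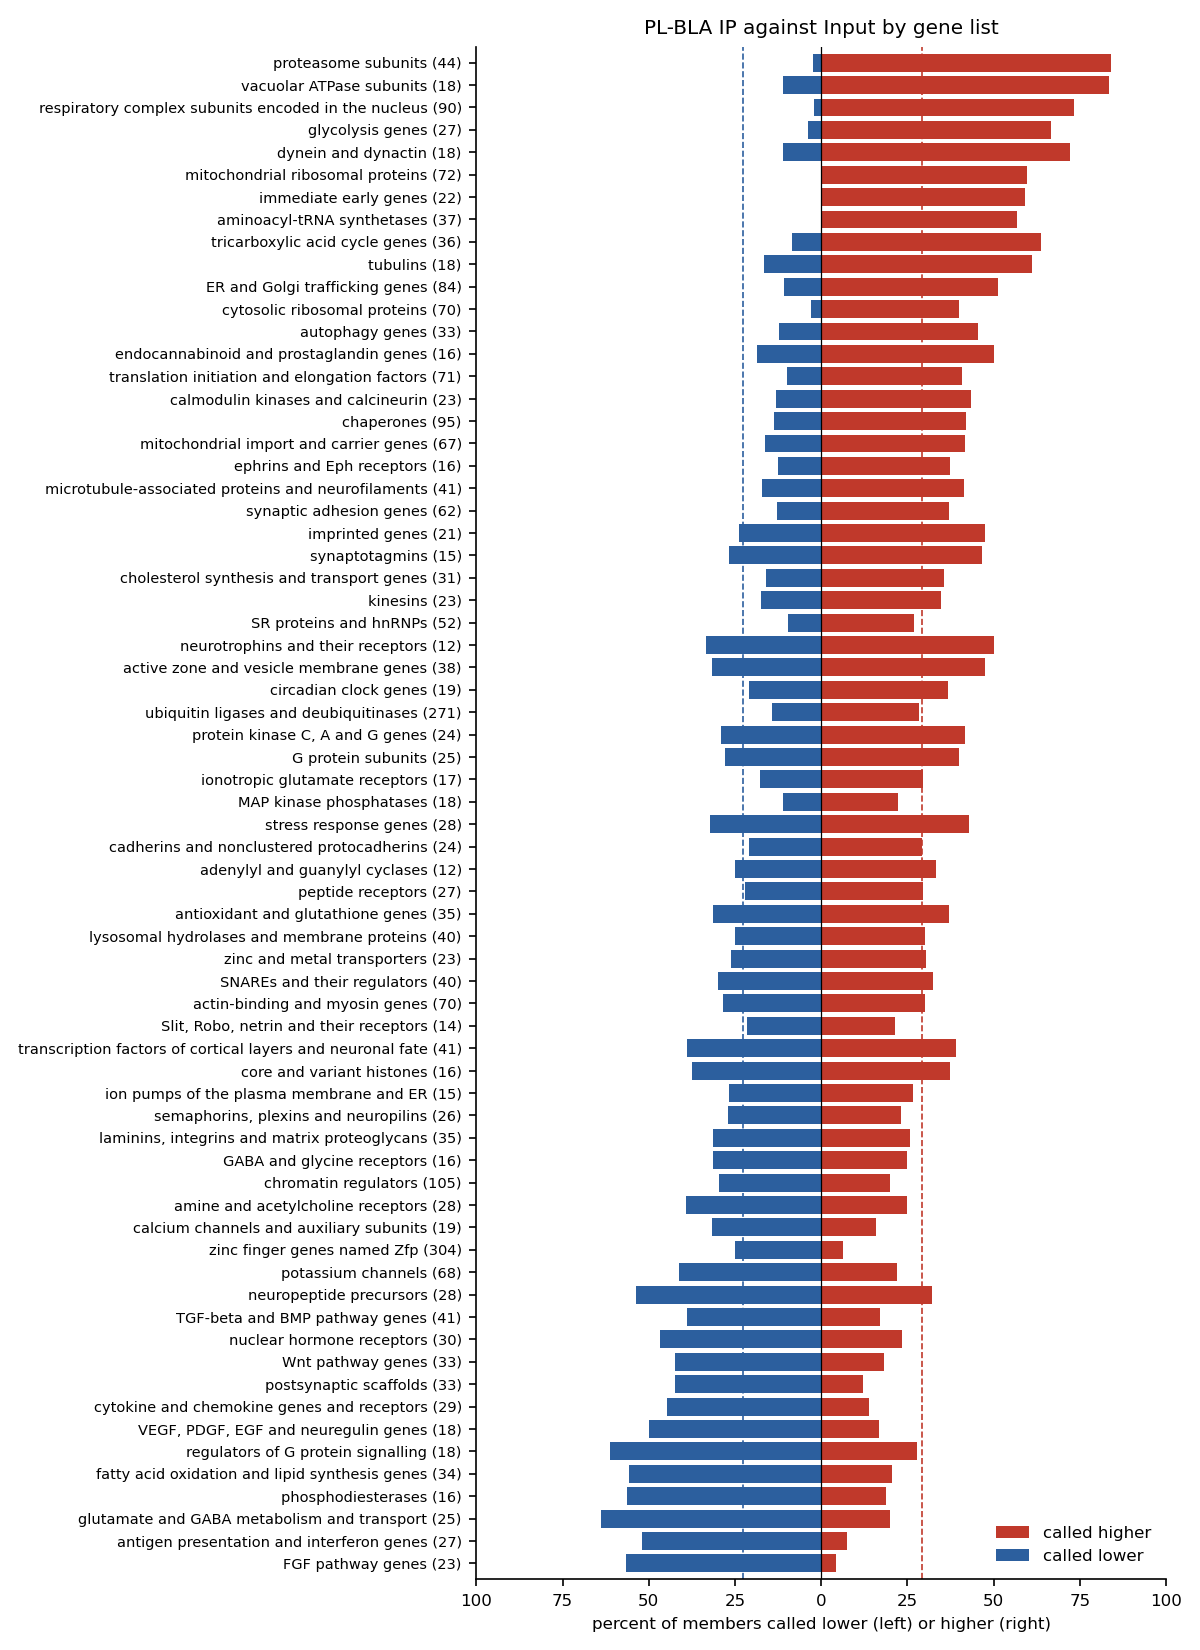
Bars give, for each gene list with its number of members in parentheses, the percent of members called higher (red, right) and lower (blue, left) in the PL-BLA IP; dashed lines mark the 29.2% and 22.8% of all members. Proteasome, vacuolar ATPase and respiratory subunits stand at the top, and FGF pathway, antigen presentation and glutamate and GABA metabolism genes at the bottom.

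Genes that receive signals at the membrane were split. Metabotropic glutamate receptors, which act through G proteins, had 4 of 7 members higher and 1 lower (median 0.25). Grm8 was at 1.01 (SE 0.15), Grm2 at 0.98 (SE 0.09) and Grm4 at -0.66 (SE 0.14), per the authors' deposited table. Ionotropic glutamate receptors, the ligand-gated channels, had 5 of 17 members higher and 3 lower (median -0.057). The obligatory NMDA receptor subunit gene Grin1 was at 0.59 (SE 0.09), and Grin2b at -0.52 (SE 0.10), per the authors' deposited table. GABA and glycine receptors had 4 of 16 members higher and 5 lower (median -0.065), with Gabbr2 of the metabotropic GABA receptor at 0.70 (SE 0.07), per the authors' deposited table.

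Amine and acetylcholine receptors had 7 of 28 members higher and 11 lower (median -0.24). The alpha-1 adrenergic receptor genes Adra1d at 1.07 (SE 0.25) and Adra1b at 0.99 (SE 0.12) and the histamine receptor genes Hrh1 at 0.99 (SE 0.13) and Hrh3 at 0.88 (SE 0.08) led the gains, per the authors' deposited table. The serotonin receptor gene Htr1d at -1.64 (SE 0.33) and the dopamine receptor gene Drd2 at -1.11 (SE 0.22) led the losses, per the authors' deposited table. Peptide receptors had 8 of 27 members higher and 6 lower (median -0.17). The neurotensin receptor gene Ntsr1 was at 1.38 (SE 0.27), Glp2r for glucagon-like peptide 2 at 1.11 (SE 0.28), the corticotropin-releasing hormone receptor gene Crhr1 at 0.98 (SE 0.13) and the somatostatin receptor gene Sstr2 at 0.98 (SE 0.11), per the authors' deposited table. Mc4r, the melanocortin 4 receptor gene, was at -0.89 (SE 0.32), and Vipr2 at -1.50 (SE 0.31), per the authors' deposited table.

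Enzymes that end or shape G protein signals fell more often. Regulators of G protein signalling, which speed GTP hydrolysis, had 5 of 18 members higher and 11 lower (median -0.33), with Rgs16 at -1.40 (SE 0.24) and Rgs10 at -1.52 (SE 0.15) but Rgs13 at 1.97 (SE 0.32), per the authors' deposited table. Phosphodiesterases, which break down cyclic nucleotides, had 3 of 16 members higher and 9 lower (median -0.41), with Pde3b at -1.33 (SE 0.31) and Pde8a at -1.21 (SE 0.22), and the calmodulin-stimulated Pde1a at 0.88 (SE 0.08), per the authors' deposited table. Cyclases, which make cyclic nucleotides, had 4 of 12 members higher and 3 lower (median -0.026), with Adcy7 at 1.59 (SE 0.23) and the striatal form Adcy5 at -1.03 (SE 0.10), per the authors' deposited table. G protein subunits had 10 of 25 members higher and 7 lower (median 0.068), from Gng13 at 0.71 (SE 0.13) to Gng11 at -2.34 (SE 0.25), per the authors' deposited table.

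Channel genes leaned toward loss. Potassium channels, which set the resting potential and end action potentials, had 15 of 68 members higher and 28 lower (median -0.20). Kcnip1 was at -1.84 (SE 0.12), Kcnmb2 at -1.77 (SE 0.31) and the glial inward rectifier gene Kcnj10 at -1.67 (SE 0.24), per the authors' deposited table. The gains among them were led by the modulatory subunit gene Kcng1 at 1.23 (SE 0.10) and the K2P potassium channel gene Kcnk4 at 0.70 (SE 0.14), per the authors' deposited table. Sodium channels, which start action potentials, had 1 of 9 members higher and 4 lower (median -0.21): Scn4b was at -2.01 (SE 0.10) and Scn1a at -0.98 (SE 0.11), with Scn3b at 0.25 (SE 0.09), a call that ends when fold changes are recentred on the median member, per the authors' deposited table. Calcium channels had 3 of 19 members higher and 6 lower (median -0.063), with the T-type gene Cacna1g at 0.52 (SE 0.16) and the auxiliary gene Cacna2d2 at -0.85 (SE 0.23), per the authors' deposited table. Ion pumps had 4 of 15 members higher and 4 lower (median 0.024).

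The release machinery moved in opposite directions gene by gene. The vacuolar ATPase, the proton pump that fills vesicles and acidifies lysosomes, was gained nearly whole, with 15 of 18 members higher and 2 lower (median 0.68). Atp6v0c, its membrane ring subunit, was at 1.15 (SE 0.08) and Atp6v1a, its catalytic subunit, at 0.98 (SE 0.07), while Atp6v0e was at -1.21 (SE 0.14), per the authors' deposited table. Active zone and vesicle membrane genes had 18 of 38 members higher and 12 lower (median 0.25): the synapsin gene Syn2 was at 1.16 (SE 0.06) and the vesicle protein gene Sv2b at 0.88 (SE 0.07), but the active zone scaffold gene Pclo at -1.48 (SE 0.13) and Unc13c at -1.75 (SE 0.22), per the authors' deposited table. SNAREs and their regulators had 13 of 40 members higher and 12 lower (median -0.059), with the calcium sensor gene Doc2a at 1.22 (SE 0.09) and the endosomal SNARE gene Vamp8 at -1.95 (SE 0.25), per the authors' deposited table. Synaptotagmins had 7 of 15 members higher and 4 lower (median 0.070), from Syt5 at 1.002 (SE 0.07) and Syt4 at 0.99 (SE 0.08) to Syt2 at -1.66 (SE 0.20) and Syt6 at -1.87 (SE 0.15), per the authors' deposited table.

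On the postsynaptic side, scaffolds had 4 of 33 members higher and 14 lower (median -0.18). The kainate receptor partner gene Neto2 was at -1.58 (SE 0.12), per the authors' deposited table. The AMPA receptor auxiliary genes Cnih3 and Cacng3 were at 1.01 (SE 0.07) and 0.63 (SE 0.07), per the authors' deposited table. Calmodulin kinases and calcineurin had 10 of 23 members higher and 3 lower (median 0.14), and kinases C, A and G with AMP-activated kinase 10 of 24 members higher and 7 lower (median 0.11), with Prkcb at 0.72 (SE 0.07) and Prkch at -1.67 (SE 0.21), per the authors' deposited table.

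Several adhesion lists held more gains than losses, as did all members (29.2% higher and 22.8% lower). Synaptic adhesion genes had 23 of 62 members higher and 8 lower (median 0.11), led by Il1rapl2 at 1.45 (SE 0.18), the teneurin gene Tenm2 at 1.06 (SE 0.14) and the receptor phosphatase gene Ptprf at 1.06 (SE 0.09), per the authors' deposited table. The neurexophilin genes Nxph1 and Nxph3, which encode secreted neurexin ligands, were at -1.21 (SE 0.12) and -0.82 (SE 0.21), per the authors' deposited table. Ephrins and their receptors had 6 of 16 members higher and 2 lower (median 0.14), with Ephb6 at 0.77 (SE 0.08) and Epha4 at 0.67 (SE 0.09), per the authors' deposited table. Semaphorins and their receptors had 6 of 26 members higher and 7 lower (median -0.18), with Plxnb1 at -1.63 (SE 0.21) and Sema4a at 0.83 (SE 0.10), per the authors' deposited table. The guidance ligand genes Slit1 at 1.001 (SE 0.13) and Slit3 at 0.83 (SE 0.17) were higher and Ntn4 at -1.32 (SE 0.27) lower, per the authors' deposited table. Cadherins and nonclustered protocadherins had 7 of 24 members higher (29.2%) and 5 lower (20.8%) at a median of 0.12, near the shares of all members. Cdh10 was at 0.89 (SE 0.11), Cdh13 at 0.83 (SE 0.09) and Cdh20 at -1.01 (SE 0.25), per the authors' deposited table. Clustered protocadherins had 5 of 11 members higher and none lower (median 0.47), and since members of a cluster share exons or are near copies, their counts are uncertain. Collagens had 3 of 11 members higher and 5 lower (median -0.55): Col22a1 at 1.95 (SE 0.28) and Col4a1 at 1.38 (SE 0.22) rose, and Col1a2 was at -1.80 (SE 0.30), per the authors' deposited table. The syndecan gene Sdc4 fell furthest among matrix genes, to -3.004 (SE 0.31), per the authors' deposited table.

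The cytoskeleton gained its microtubule core. Tubulins had 11 of 18 members higher and 3 lower (median 0.48), with Tubb5 at 1.39 (SE 0.07), Tubb2a at 1.37 (SE 0.06), Tubb4b at 1.30 (SE 0.07) and Tuba1a at 1.22 (SE 0.06), per the authors' deposited table. Dynein and dynactin, the motor that carries cargo back to the cell body, had 13 of 18 members higher and 2 lower (median 0.41). The light chain genes Dynlrb2 at 1.06 (SE 0.33) and Dynll1 at 0.83 (SE 0.07) rose, and the heavy chain gene Dync1h1 was at -0.34 (SE 0.12), per the authors' deposited table. Kinesins, which carry cargo outward, had 8 of 23 members higher and 4 lower (median -0.040): Kif3a was at 0.74 (SE 0.08) and Kif5a at -1.50 (SE 0.08), per the authors' deposited table. The stathmin genes Stmn1 at 0.97 (SE 0.07) and Stmn3 at 0.87 (SE 0.06) were higher, and the dendritic protein gene Map2 at -1.37 (SE 0.08) lower, per the authors' deposited table. Actin-binding and myosin genes had 21 of 70 members higher and 20 lower (median -0.021), with the troponin gene Tnnc1 at 1.60 (SE 0.11) and the spectrin gene Sptb at -1.91 (SE 0.18), per the authors' deposited table.

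The zinc finger, chromatin regulator and nuclear receptor lists held more losses than gains. The 304 zinc finger members named Zfp had 19 higher (6.25%) and 76 lower (25%) at a median of -0.19, so that the share lower was near that of all members and the share higher was below it, with the layer and fate gene Zfp521 at -2.31 (SE 0.29) and Zfp296 at 1.45 (SE 0.20), per the authors' deposited table. Chromatin regulators had 21 of 105 members higher and 31 lower (median -0.14), with the DNA demethylation enzyme genes Tet2 at -2.02 (SE 0.19) and Tet1 at -1.59 (SE 0.24) and the remodeller gene Chd7 at -1.87 (SE 0.26), per the authors' deposited table. Nuclear hormone receptors had 7 of 30 members higher and 14 lower (median -0.20): the oestrogen receptor gene Esr1 was at 1.01 (SE 0.27), Nr2f1 at 0.67 (SE 0.14) and its relative Nr2f2 at -1.15 (SE 0.29), per the authors' deposited table. Transcription factors of cortical layers and fate had 16 of 41 members higher and 16 lower (median -0.10), with Fezf2 at 0.84 (SE 0.10), Lmo4 at 0.84 (SE 0.07), Rorb at -0.90 (SE 0.13) and Tshz2 at -2.20 (SE 0.33), per the authors' deposited table. Splicing factors of the SR and hnRNP families had 14 of 52 members higher and 5 lower (median 0.11), with the neuronal splicing regulator gene Srrm4 at 0.73 (SE 0.14), per the authors' deposited table. A list of 30 replication and recombination genes, drawn up after values were seen, had 15 of 30 members higher and 2 lower (median 0.28), with Mcm5 at 1.87 (SE 0.14) and Mcm6 at 1.85 (SE 0.16), per the authors' deposited table. Another list added in this way, of nucleolar and spliceosome core genes, had 29 of 66 members higher and 3 lower (median 0.25), with Nol8 at 1.81 (SE 0.14) and Prpf8, a core protein of the spliceosome, at 1.58 (SE 0.11), per the authors' deposited table.

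Protein synthesis and turnover genes were gained widely and by small amounts. Aminoacyl-tRNA synthetases had 21 of 37 members higher and none lower (median 0.25), with Eprs at 1.40 (SE 0.18) and the mitochondrial Lars2 at 1.01 (SE 0.20), per the authors' deposited table. Cytosolic ribosomal proteins had 28 of 70 members higher and 2 lower (median 0.29), and translation factors 29 of 71 members higher and 7 lower (median 0.15), with Eif3m at 1.03 (SE 0.09) and the poly(A)-binding protein gene Pabpc1 at -0.63 (SE 0.12), per the authors' deposited table. The proteasome, which degrades ubiquitinated proteins, had 37 of 44 members higher and 1 lower (median 0.36), from Psma1 at 0.65 (SE 0.08) to the activator gene Psme3 at -0.19 (SE 0.07), per the authors' deposited table. Ubiquitin ligases and deubiquitinases had 77 of 271 members higher and 39 lower (median 0.048), close to the background for gains.

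Chaperones had 40 of 95 members higher and 13 lower (median 0.21). The constitutive Hspa8 at 0.89 (SE 0.07) and Hsp90ab1 at 0.95 (SE 0.07) were higher, whereas the small heat shock genes Hspb8 at -1.82 (SE 0.20) and Cryab at -1.76 (SE 0.09), with their partner Bag3 at -1.47 (SE 0.28), were lower, per the authors' deposited table. Autophagy genes had 15 of 33 members higher and 4 lower (median 0.14): beside Atg7, Atg9b was at 0.89 (SE 0.28) and the autophagy receptor gene Optn at 0.86 (SE 0.13), while Tfeb, a transcription factor of lysosome genes, was at -2.08 (SE 0.25), per the authors' deposited table. Lysosomal genes had 12 of 40 members higher and 10 lower (median 0.069), with the acid glucosidase gene Gaa at 0.90 (SE 0.08) and the microglial cathepsin gene Ctss at -1.55 (SE 0.18), per the authors' deposited table. ER and Golgi trafficking genes had 43 of 84 members higher and 9 lower (median 0.22), with the oligosaccharyltransferase gene Rpn1 at 0.80 (SE 0.07) and Golga4 at -1.03 (SE 0.10), per the authors' deposited table. Stress response genes had 12 of 28 members higher and 9 lower (median 0.17), with Nupr1 at -3.12 (SE 0.25), Ddit3 at -1.56 (SE 0.14) and Atf4 at -0.93 (SE 0.09) but the amino acid transporter subunit gene Slc3a2 at 0.82 (SE 0.08), per the authors' deposited table.

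Energy metabolism was gained along its length. Glycolysis genes had 18 of 27 members higher and 1 lower (median 0.59), with the hexokinase gene Hk2 at 1.16 (SE 0.29), Ldha at 1.08 (SE 0.06) and the phosphofructokinase gene Pfkp at 1.05 (SE 0.07), per the authors' deposited table. Tricarboxylic acid cycle genes had 23 of 36 members higher and 3 lower (median 0.29), with Ogdhl at 0.66 (SE 0.14) and Mdh2 at 0.64 (SE 0.06) higher and Suclg2 at -1.45 (SE 0.25) lower, per the authors' deposited table. Respiratory subunits encoded in the nucleus had 66 of 90 members higher and 2 lower (median 0.32), and mitochondrial ribosomal proteins 43 of 72 members higher and none lower (median 0.29), with Mrpl41 at 0.86 (SE 0.09), per the authors' deposited table. Import and carrier genes had 28 of 67 members higher and 11 lower (median 0.14), with the glutamate carrier gene Slc25a22 at 0.96 (SE 0.06) and Slc25a34 at -2.34 (SE 0.31), per the authors' deposited table.

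Promoters of respiratory genes are known to hold sites for NRF1, a factor that binds the palindromic motif searched here. The promoters of 3 respiratory genes that rose are shown with this motif, which was picked after its shares were seen. They are RefSeq sequences of GRCm38.p6, the 250 bases before the gene start, 5′ to 3′ on the gene's strand. Capitals mark matches to this NRF1-type palindrome on either strand, in which 1 of the 10 letters may be any base, and matches that overlap run on as 1 stretch.
Ndufb4 (chr16:37654369-37654618, minus strand): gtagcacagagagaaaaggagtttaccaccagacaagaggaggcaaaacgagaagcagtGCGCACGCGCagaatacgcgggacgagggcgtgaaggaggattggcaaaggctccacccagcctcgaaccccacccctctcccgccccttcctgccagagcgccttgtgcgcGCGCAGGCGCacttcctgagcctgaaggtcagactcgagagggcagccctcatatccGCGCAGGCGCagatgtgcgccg
Ndufs5 (chr4:123718187-123718436, minus strand): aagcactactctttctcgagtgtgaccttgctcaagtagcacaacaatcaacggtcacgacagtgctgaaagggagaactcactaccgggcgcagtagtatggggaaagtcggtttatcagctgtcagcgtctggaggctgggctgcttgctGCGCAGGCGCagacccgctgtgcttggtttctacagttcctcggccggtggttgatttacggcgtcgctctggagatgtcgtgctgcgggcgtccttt
Atp5k (chr5:108434400-108434649, minus strand): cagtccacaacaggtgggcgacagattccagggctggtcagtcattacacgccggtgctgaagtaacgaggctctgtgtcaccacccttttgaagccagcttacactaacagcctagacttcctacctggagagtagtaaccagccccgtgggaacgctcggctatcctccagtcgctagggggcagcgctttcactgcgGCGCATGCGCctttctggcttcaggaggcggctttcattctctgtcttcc
Ndufb4 and Ndufs5 encode subunits of complex I and Atp5k a subunit of ATP synthase, and they were at 0.92 (SE 0.13), 0.48 (SE 0.10) and 0.43 (SE 0.09), per the authors' deposited table. The 3 were taken as the highest changes among respiratory genes called higher that hold the motif.

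The motif stood in the 250 bases of 4.23% of 27025 genes with a promoter, of 9.42% of 9138 members and of 14 of 73 respiratory genes, or 19.2%. It stood in 12 of 55 respiratory genes called higher (21.8%) and in 2 of 18 others (11.1%). In mitochondrial ribosomal protein genes the order was the reverse, with 4 of 37 called higher (10.8%) and 6 of 26 others (23.1%). This motif was picked after its shares were seen, from 15 patterns looked at in 62 lists with at least 12 promoters. The patterns were forms of the motifs known for NRF1, CREB, E-box factors, SRF, YY1, heat shock factors, the GC box, the CCAAT box and ETS factors. Among those 930 pairs of pattern and list, its pairing with respiratory genes ranked 87 by the ratio of the list's share to that of all members. Pairs above it included TGACGTCA in 5 of 22 neuropeptide precursor promoters and TCACGTGA in 4 of 31 lysosomal ones. A match is a run of letters and says nothing of binding.

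Fatty acid genes, and those of glutamate and GABA, held more losses than gains, unlike cholesterol genes. Fatty acid and lipid synthesis genes had 7 of 34 members higher and 19 lower (median -0.33), with the fatty acid-binding protein gene Fabp7 at -2.07 (SE 0.16) and the desaturase gene Scd1 at -1.47 (SE 0.18), against Fasn, the fatty acid synthase gene, at 1.11 (SE 0.10), per the authors' deposited table. Glutamate and GABA metabolism and transport had 5 of 25 members higher and 16 lower (median -0.51), with the glutamine transporter gene Slc38a3 at -1.56 (SE 0.15) and the cystine-glutamate exchanger gene Slc7a11 at -1.56 (SE 0.26), per the authors' deposited table. Astrocytes are known to use several of these genes, and the 5 of 6 astrocyte markers that fell did so at a list median of -1.39; their part in these losses was not tested. Cholesterol genes had 11 of 31 members higher and 5 lower (median 0.15): the synthesis enzyme gene Fdps was at 0.56 (SE 0.10), while the carrier genes Apoe at -2.33 (SE 0.21) and Abca1 at -1.61 (SE 0.27) were lower, per the authors' deposited table. Antioxidant genes had 13 of 35 members higher and 11 lower (median 0.050), from Prdx4 at 1.06 (SE 0.14) and Gpx3 at 0.999 (SE 0.15) to the metallothionein genes Mt1 at -1.85 (SE 0.09) and Mt2 at -2.21 (SE 0.26), per the authors' deposited table. Zinc and metal transporters had 7 of 23 members higher and 6 lower (median 0.14): the zinc importer genes Slc39a6 at 1.05 (SE 0.11) and Slc39a10 at 1.02 (SE 0.07) were higher and the iron exporter gene Slc40a1 at -1.90 (SE 0.27) lower, per the authors' deposited table.

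Of the secreted signals, the neuropeptide, FGF, Wnt and TGF-beta lists held more losses than gains. The medians of the neuropeptide, Wnt and TGF-beta lists turned positive among genes with a mean of at least 200. Neuropeptide precursors had 9 of 28 members higher and 15 lower (median -0.31): Grp, the gastrin-releasing peptide gene, was at 1.45 (SE 0.26), Adcyap1 (PACAP) at 1.22 (SE 0.12) and Cck at 1.21 (SE 0.07), per the authors' deposited table. FGF pathway genes had 1 of 23 members higher and 13 lower (median -0.44), with the receptor genes Fgfr3 at -2.13 (SE 0.14), Fgfr2 at -1.85 (SE 0.17) and Fgfr1 at -1.29 (SE 0.18), per the authors' deposited table. Wnt pathway genes had 6 of 33 members higher and 14 lower (median -0.33). The Wnt agonist gene Rspo2 was at 2.11 (SE 0.14), the ligand genes Wnt7b at 1.60 (SE 0.09) and Wnt4 at 1.10 (SE 0.12), and Wnt7a, a close relative of Wnt7b, at -1.47 (SE 0.24), per the authors' deposited table. TGF-beta and BMP genes had 7 of 41 members higher and 16 lower (median -0.27), with Bmp3 at 1.65 (SE 0.16) and Bmp2 at 1.18 (SE 0.21) against Bmp7 at -1.57 (SE 0.21) and the receptor gene Tgfbr2 at -1.55 (SE 0.28), per the authors' deposited table. Growth factors of the VEGF, PDGF, EGF and neuregulin families had 3 of 18 members higher and 9 lower (median -0.56), with Vegfd at 2.89 (SE 0.22) and Tgfa at -2.18 (SE 0.17), per the authors' deposited table.

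Neurotrophins and their receptors had 6 of 12 members higher and 4 lower (median 0.017): Gfra2, the neurturin receptor gene, was at 1.59 (SE 0.09) and its ligand gene Nrtn at -1.49 (SE 0.31), while Bdnf was at 1.19 (SE 0.10), per the authors' deposited table. Of 22 immediate early genes, which neuronal activity induces, 13 were higher and none lower, with the pentraxin gene Nptx2 at 1.56 (SE 0.10) and Egr4 at 1.06 (SE 0.09), per the authors' deposited table. Secreted synaptic organizers, a list added after values were seen, had 8 of 20 members higher and 7 lower (median -0.089): the C1q-like gene C1ql3 was at 1.45 (SE 0.10) and C1ql1 at -2.33 (SE 0.26), per the authors' deposited table. Endocannabinoid and prostaglandin genes had 8 of 16 members higher and 3 lower (median 0.30), with the cyclooxygenase gene Ptgs2 at 1.13 (SE 0.18) and the prostaglandin D synthase gene Ptgds at -2.61 (SE 0.09), per the authors' deposited table. Antigen presentation and interferon genes had 2 of 27 members higher and 14 lower (median -0.34), and cytokine genes 4 of 29 members higher and 13 lower (median -0.31), with Il34 at 0.79 (SE 0.09) and Il33 at -2.28 (SE 0.12), per the authors' deposited table. All 6 microglia markers fell at a median of -2.05 beside these lists, and their part was not tested. Imprinted genes had 10 of 21 members higher and 5 lower (median 0.11). They ran from the cell cycle inhibitor gene Cdkn1c at 2.28 (SE 0.14) and the deiodinase gene Dio3 at 1.20 (SE 0.30) to Igf2 at -2.57 (SE 0.22) and Meg3 at -4.66 (SE 0.10), per the authors' deposited table.

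Within families, single members often parted from their relatives. Of the SNARE genes Vamp1, Vamp2 and Vamp3, Vamp2 was at 0.50 (SE 0.07) and the others at -1.49 (SE 0.09) and -1.65 (SE 0.13), per the authors' deposited table. The kinesin heavy chain gene Kif5a was at -1.50 (SE 0.08), while Kif5b at -0.14 (SE 0.08) and Kif5c at -0.091 (SE 0.07) were not called, per the authors' deposited table. Aldoa was at 0.89 (SE 0.06) and Aldoc, known from astrocytes and Purkinje cells, at -0.80 (SE 0.15), per the authors' deposited table. The cytochrome oxidase gene Cox6a1 was at 0.19 (SE 0.07), a call that also ends on recentring, and its heart and muscle form Cox6a2 at -2.76 (SE 0.25), per the authors' deposited table. Map1a was at -0.74 (SE 0.09) and Map1b not called at 0.17 (SE 0.07), per the authors' deposited table. Calm2 and Calm3, calmodulin genes that encode the same protein, were at 0.30 (SE 0.07) and -0.46 (SE 0.09), per the authors' deposited table.

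**Figure D3:**
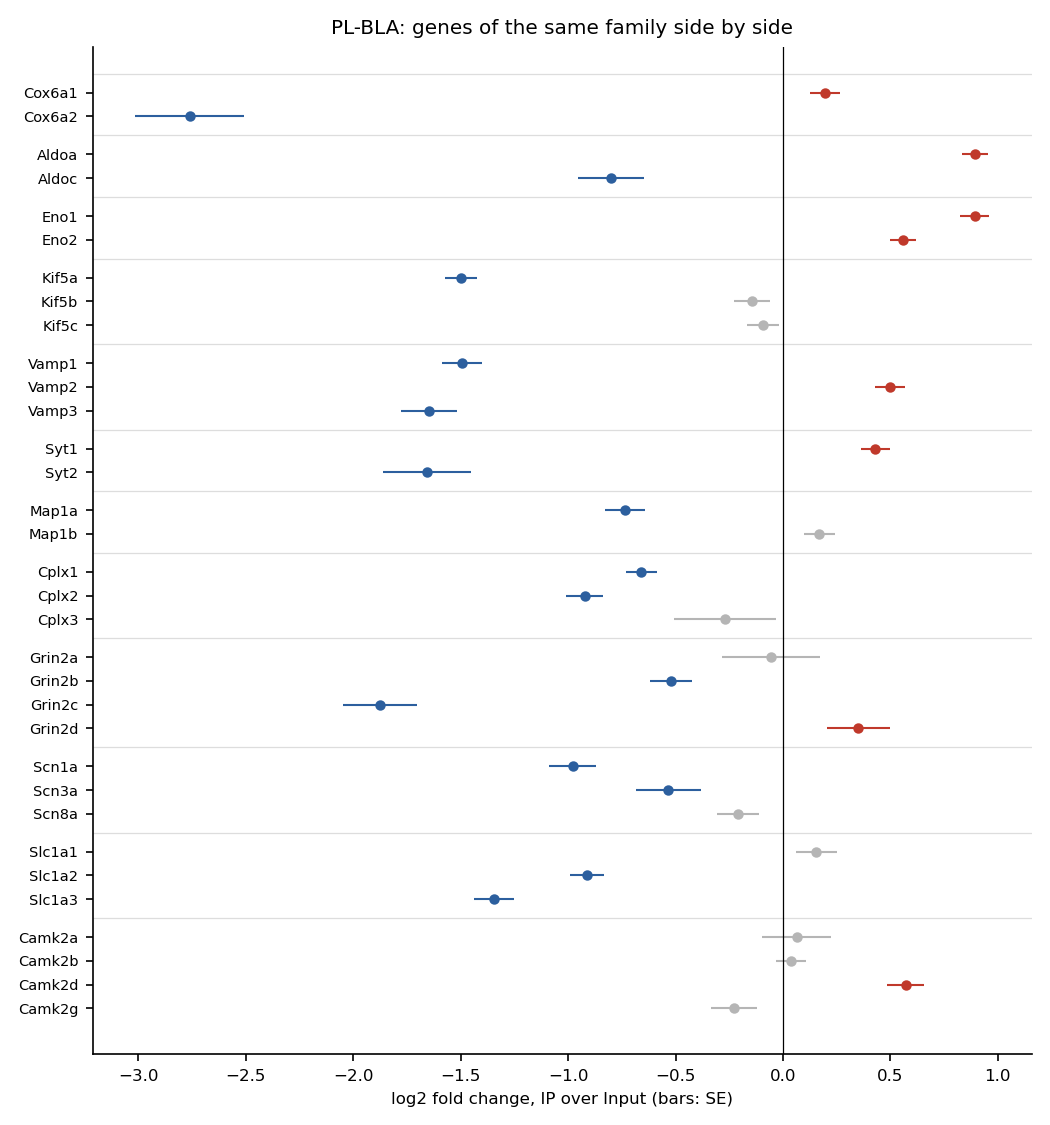
Points give the log2 fold change of IP over Input (bars, the authors' SE) for genes of 12 families, separated by grey lines; red is called higher, blue called lower and grey not called. Vamp2 lies right of 0 and both Vamp1 and Vamp3 left of it, and Kif5a lies at -1.50 beside Kif5b and Kif5c near 0.

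Gene properties also ran with the change. Of 8 properties examined over protein-coding members outside the mitochondrial genome, abundance gave the largest contrast: in the bottom quintile by mean 183 genes were higher and 805 lower, and in the highest 1410 and 282. The length of the whole mRNA and of its 3′ UTR, in the GENCODE M21 transcript with the longest coding sequence, came next by the spread of medians over quintiles. For the 3′ UTR the counts were as follows. With at most 313 bases, 877 genes were higher and 377 lower at a median of 0.19. With at least 2460 bases, 391 were higher and 786 lower at a median of -0.14. The order was the same among genes with means under the median, from 226 higher and 241 lower to 59 and 490, and among the rest, from 682 and 119 to 334 and 294. Spearman's rank correlation with the log2 change, across 11472 genes that are not independent replicates, was -0.22 for 3′ UTR length, -0.18 for genomic span, -0.11 for coding length and 0.37 for the mean.

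The length of the whole mRNA ran the same way, from a median of 0.22 in the shortest quintile to -0.16 in the longest, and genomic span from 0.20 to -0.12. Coding length ran from 0.15 to -0.07, 5′ UTR length from 0.089 to -0.016 and exon number from 0.087 to -0.026. GC content ran upward, from -0.061 in the bottom quintile to 0.098 in the highest. These properties share information, and 3′ UTR length was split by abundance only after its order was seen. By nuclear chromosome, medians lay between 0.011 on chromosome 3 and 0.12 on chromosome X.

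**Figure D4:**
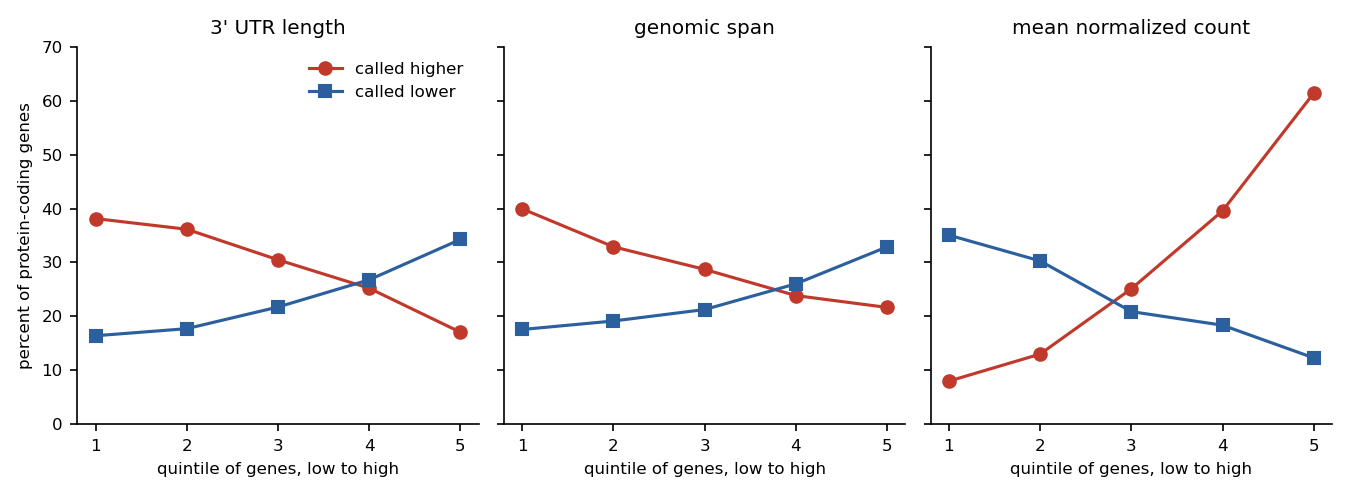
Lines give the percent of protein-coding members called higher (red circles) and lower (blue squares) in each quintile of 3′ UTR length, genomic span and mean normalized count, from low to high. The 2 lines cross after the third quintile of UTR length and of span, and run the opposite way with the mean.

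The remaining lists are given by their counts. MAP kinase phosphatases had 4 of 18 members higher and 2 lower (median -0.050), circadian clock genes 7 of 19 members higher and 4 lower (median 0.047) and core and variant histones 6 of 16 members higher and 6 lower (median 0.033). Matrix genes had 9 of 35 members higher and 11 lower (median -0.052), guidance genes of the Slit, Robo and netrin families 3 of 14 members higher and 3 lower (median 0.20), and microtubule-associated and neurofilament genes 17 of 41 members higher and 7 lower (median 0.14). SnoRNA host genes had 3 of 8 members higher and 2 lower (median 0.076), and immunoglobulin genes 2 of 5 members higher and none lower (median 0.21). Among the lists added after values were seen, EF-hand calcium sensors and buffers had 16 of 36 members higher and 17 lower (median -0.11), Rab and Arf-like GTPases 24 of 75 members higher and 18 lower (median 0.039), and plasma membrane carriers of amino acids, peptides and sugars 13 of 43 members higher and 11 lower (median 0.10). Creatine, adenylate and nucleotide kinases had 11 of 21 members higher and 3 lower (median 0.34), and serine proteases with their inhibitors 15 of 29 members higher and 8 lower (median 0.38). List medians between 0 and 0.055 turn negative when fold changes are recentred on the median member.

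To see what sets the BLA projection apart, its fold changes were compared gene by gene with those of PL-NAc and PL-VTA, which share no library with it. A Wald z on the difference was adjusted by Benjamini-Hochberg over all genes with a mean of at least 50 in both tables. Against PL-NAc, 187 of 11996 genes were higher in PL-BLA (1.56%) and 101 lower (0.842%). Against PL-VTA, 342 of 12097 were higher (2.83%) and 337 lower (2.79%). PL-VTA had fewer libraries, and its median SE over these genes was 0.217. The fold changes appear shrunken toward 0, perhaps by unlike amounts in the projections, and the part of this in the differences was not tested. Several RNAs not translated on cytosolic ribosomes were among the 337. The transcript mt-Rnr1 was at -6.65 (SE 0.15) in PL-BLA and -4.90 (SE 0.27) in PL-VTA, and Malat1 at -5.93 (SE 0.21) and -3.73 (SE 0.40). Against PL-NAc, mt-Cytb was higher in PL-BLA, at -5.26 (SE 0.32) beside -7.11 (SE 0.16). The part of such RNA in the other differences was not tested. A list of 22 genes known from striatal projection neurons, drawn up after values were seen, moved with the comparison against PL-VTA. The 20 that were tested all fell in PL-BLA, at a median of -1.19, and their median in PL-VTA was 0.27. Against PL-VTA, 12 of the 20 were lower in PL-BLA and 0 higher; against PL-NAc, 5 of the 17 tested were lower and 1 higher. The SEs of the 20 in PL-VTA ran from 0.14 to 0.45 with a median of 0.43, beside a median of 0.11 in PL-BLA. Ppp1r1b, the DARPP-32 gene, was at -1.77 (SE 0.07) in PL-BLA and 0.26 (SE 0.45) in PL-VTA, and Gng7 at -1.61 (SE 0.07) and 0.83 (SE 0.14), per the authors' deposited tables; both were picked from this list after their values were seen. The part of these genes' source in the differences from PL-VTA was not tested. Genes called in opposite directions numbered 17 for PL-NAc and 108 for PL-VTA. The next sets share the PL-BLA libraries: 33 genes were higher and 55 lower than in both other projections.

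Some genes were higher in PL-BLA than in either other projection. Susd5 was at 2.46 (SE 0.15) in PL-BLA, 1.62 (SE 0.17) in PL-NAc and -1.37 (SE 0.39) in PL-VTA, per the authors' deposited tables. Col4a1, a basement membrane collagen gene, was at 1.38 (SE 0.22), -0.59 (SE 0.30) and -0.078 (SE 0.39) in the same order, per the authors' deposited tables. Nptx2 was at 1.56 (SE 0.10), 0.96 (SE 0.09) and -0.55 (SE 0.24), per the authors' deposited tables. The alpha-1 adrenergic receptor gene Adra1b was at 0.99 (SE 0.12), 0.36 (SE 0.12) and -0.67 (SE 0.24), per the authors' deposited tables. Nptx2 and Adra1b were chosen for this comparison after their values were seen. Each of these differences passed against both projections, with adjusted p of 0.0133 and 1.87e-17 for Susd5, 2.38e-05 and 0.0249 for Col4a1, 0.00116 and 1.89e-13 for Nptx2 and 0.00964 and 4.75e-08 for Adra1b against PL-NAc and PL-VTA. The astrocyte marker Aldh1l1, also picked after its values were seen, was in the same set. It was at 0.23 (SE 0.11) in PL-BLA, -0.78 (SE 0.11) in PL-NAc and -0.66 (SE 0.20) in PL-VTA, per the authors' deposited tables. The adjusted p of its Wald z was 1.90e-08 against PL-NAc and 0.00257 against PL-VTA.

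Losses that set PL-BLA apart included transcription factors and receptors. The 55 genes lower than in both other projections also held Drd1, Gng7, Ppp1r1b and Syndig1l of the striatal list, whose part was not tested. Sebox was at -1.97 (SE 0.32) in PL-BLA, 0.12 (SE 0.26) in PL-NAc and 0.70 (SE 0.33) in PL-VTA, and Foxp2, a forkhead factor of deep cortical layers, at -1.75 (SE 0.17), 0.055 (SE 0.16) and 0.36 (SE 0.25), per the authors' deposited tables. Mc4r was at -0.89 (SE 0.32), 0.85 (SE 0.27) and 2.36 (SE 0.29), and Nxph3 at -0.82 (SE 0.21), 1.28 (SE 0.16) and 0.22 (SE 0.27), per the authors' deposited tables. Their differences passed against both, with adjusted p of 7.96e-05 and 6.34e-07 for Sebox, 1.57e-11 and 1.24e-09 for Foxp2, 0.00267 and 1.24e-11 for Mc4r and 4.04e-12 and 0.0405 for Nxph3. Cdkn1c and Tnnc1 set PL-BLA apart from PL-VTA: they were at 2.28 (SE 0.14) and 1.60 (SE 0.11) in PL-BLA, at -1.26 (SE 0.35) and -2.48 (SE 0.33) in PL-VTA, and at 2.24 (SE 0.13) and 1.84 (SE 0.11) in PL-NAc, per the authors' deposited tables.

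**Figure D5:**
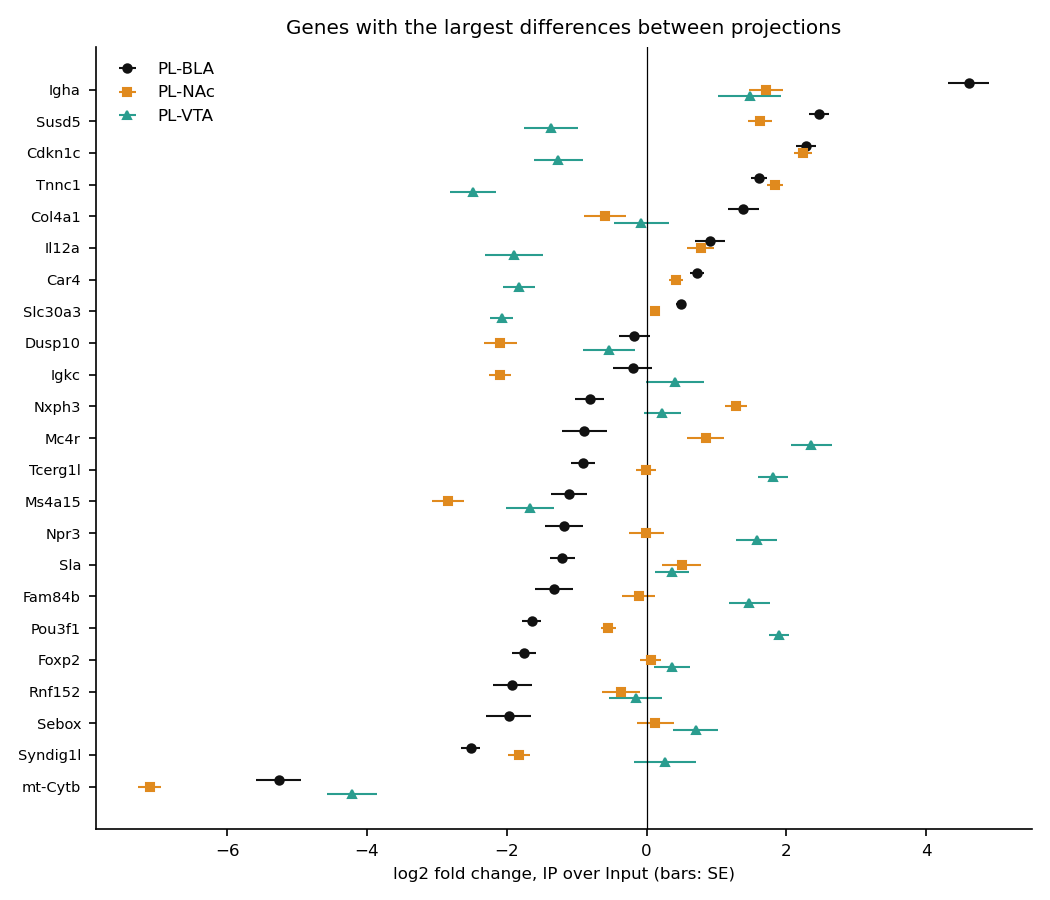
Points give the log2 fold change of IP over Input (bars, the authors' SE) in PL-BLA (black circles), PL-NAc (orange squares) and PL-VTA (green triangles) for the genes with the 6 largest called differences in each direction against each projection. Igha and Susd5 lie highest in PL-BLA, and Sebox, Rnf152 and Foxp2 lie below both other projections.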

How the data were processed

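Polysome-bound RNA (IP) and total RNA (Input) were sequenced, with 3 libraries each for PL-BLA. The kits were SMARTer Ultra Low RNA and Nextera XT, per the labels' protocols, a chemistry that does not mark strand. The submitters' processing notes name STAR 2.3, featureCounts and DESeq2, and the builds mm10 and GRCm38. For other versions, the annotation and the model, the sources used here give nothing. The mean signal is the authors' normalized read count averaged over the libraries, per the file headers. The deposited columns also hold the authors' log2 fold change with SE, Wald score, p-value and adjusted p-value. Fold changes of genes with few reads lie near 0, so the log2 values appear shrunken and understate the change of such genes. Without strand, overlapping genes cannot be told apart.

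From these tables were computed calls (adjusted p under 0.05), counts and medians over 83 gene lists, 8 lists and a list of striatal genes added after values were seen, and 40 family sets, and Wald tests of differences between projections with Benjamini-Hochberg adjustment, checked on simulated fold changes with known answers (Python 3.11.15, pandas 2.3.3, scipy 1.17.1). The simulated noise was drawn from the authors' SEs, so that check covers the computation and not whether the SEs hold for these data. The members and lists were chosen with earlier results of these data known. Of the members, 12146 matched GENCODE M21, and 71 had no symbol. Depth was known only as mean normalized counts over all 6 libraries. The choice of a comparison table as the main source was planned for files without counts.

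Genes were named by a rule: the 12 highest and 12 lowest called changes, the 6 of each direction with the largest statistic, the 6 highest means, up to 4 called members per list and direction with every member of lists of at most 10, the family sets, the 6 largest differences per direction from each projection, and the 2 genes on each side of the minimum. Rpl10a and the promoter genes Ndufs5 and Atp5k lie outside it and were chosen after their values were seen. Some genes and 1 gene list are not reported here.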

Additional observations from a re-analysis of the deposited data

Results flagged for a closer look

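The genes below had fold changes in PL-BLA that differed from those of another projection by a Wald z test, adjusted over all genes tested. They are the 6 largest differences per direction from each projection, out of 288 called against PL-NAc and 679 called against PL-VTA. Values are PL-BLA minus the other projection on the log2 scale, from the authors' deposited tables. They were picked for their size.

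Against PL-NAc, Sebox differed by -2.1, Nxph3 by -2.09, Foxp2 by -1.8, Mc4r by -1.74, Sla by -1.71 and Rnf152 by -1.55. Igha differed by 2.9, Col4a1 by 1.98, Dusp10 by 1.92, Igkc by 1.9, mt-Cytb by 1.85 and Ms4a15 by 1.73. Of these, Sla, a signalling adaptor gene, was at -1.21 (SE 0.18) in PL-BLA and 0.50 (SE 0.28) in PL-NAc, and Dusp10, a MAP kinase phosphatase gene, at -0.17 (SE 0.22) and -2.09 (SE 0.23), per the authors' deposited tables. Igkc was not called in PL-BLA at -0.20 (SE 0.28) and stood at -2.10 (SE 0.15) in PL-NAc, per the authors' deposited tables.

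Against PL-VTA, Pou3f1 differed by -3.53, Mc4r by -3.25, Fam84b by -2.79, Syndig1l by -2.78, Npr3 by -2.75 and Tcerg1l by -2.72. Tnnc1 differed by 4.09, Susd5 by 3.83, Cdkn1c by 3.54, Il12a by 2.8, Slc30a3 by 2.57 and Car4 by 2.55. Slc30a3, the zinc transporter gene of synaptic vesicles, was at 0.50 (SE 0.07) in PL-BLA and -2.07 (SE 0.16) in PL-VTA, and Npr3, a natriuretic peptide receptor gene, at -1.18 (SE 0.27) and 1.57 (SE 0.29), per the authors' deposited tables.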

How the results depend on the processing

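With a minimum mean of 200, 1806 genes were lower; past 2-fold, 142 were higher and 432 lower. With no minimum, 1620 were at least 2-fold lower. A Wald test of a change beyond 2-fold left 51 higher and 358 lower. All other counts of calls over all genes, and those of differences between projections, stayed within 1.5 times under the alternatives run. Of 364 counts for 91 lists, 14 moved by over 1.5 times, and 20 list medians changed sign. With recentring, the members higher became 2 for ionotropic glutamate receptors, 0 for sodium channels, 3 for clustered protocadherins and 0 for the FGF list. Those lower became 6 for calmodulin kinases, 8 for cadherins, 11 for SR and hnRNP genes, 8 for clock genes, 4 for respiratory subunits, 2 for glycolysis and 5 for creatine and nucleotide kinases; aminoacyl-tRNA synthetases had 1, also when adjusted over members only, where clock genes had 7. Recentring turned the medians of ion pumps, histones, clock genes, ubiquitin ligases, antioxidant genes, neurotrophins and Rab GTPases negative. A minimum mean of 200 turned those of amine receptors, peptide receptors, MAP kinase phosphatases, semaphorins, kinesins, actin-binding genes, neuropeptides, the TGF-beta and Wnt lists, EF-hand genes and synaptic organizers positive, that of snoRNA host genes negative, and 1 not reported here. Of 732 named genes, recentring the fold changes on the median member ended 13 calls and added 3, with no change of direction. The lost calls were Cox6a1, Flrt3, Grik4, Grin2d, Grm3, Pcdhb20, Pde6d, Ppp3ca, Rab4b, Rbfox2, Scn3b, Slc2a1 and Slc8a2. Adjusting over members alone ended none and added 1, Map1b. No paired analysis was possible because the tables hold no values per library. For the same reason leaving out each library, the replicate block and a count model with other scaling were not run. The unknown depth per library and the shrinkage limit what can be said of genes near the minimum. The shrinkage also limits what can be said of differences between projections.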
